A study of Mus musculus with 6 samples.

Results

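The genes described here are the antioxidant, glutathione and metallothionein genes of the mouse spinal cord: the superoxide dismutases, catalase, the glutathione peroxidases, the peroxiredoxins, the thioredoxin system, the enzymes and the transporter that supply glutathione, the glutathione transferases, the 3 metallothioneins Mt1 to Mt3, and NRF2 (gene Nfe2l2) with 2 of its classical targets. The rule used symbols and a count minimum, not fold changes, although it was written with earlier results of these data known. Of 53 protein-coding symbols that matched, 44 had at least 30 counts summed over all libraries, out of 35275 genes in the count table, and all 44 also passed the filter on low counts that the test across all genes used. The 9 others held fewer counts, 2 of them none.

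RNA of whole spinal cord was measured by poly(A)-selected bulk RNA-seq in 3 Sox2 cKO and 3 Ctrl mice on the C57BL/6 background, to ask how deletion of the transcription factor SOX2 in astrocytes alters gene expression. Sox2 cKO mice were mGfap-Cre:Sox2fl/fl, in which a mouse Gfap promoter drives Cre recombinase in most astrocytes, and other cells keep Sox2. The control genotype is given in 3 ways: the sample labels give mGfap-Cre:Sox2+/+, the series' design text gives mice that carry either mGfap-Cre or Sox2fl/fl, and the study's methods give Sox2fl/fl littermates. Both sexes were present in each group. The age is 90 days in the sample labels and 80 days in the labels' protocol, for both groups alike. The columns of the tables were matched to groups by the last digit of the column name, taken as a mouse number (2, 4 and 6 as Ctrl, 1, 3 and 5 as Sox2 cKO). They carry no replicate, batch or sex label, so libraries are named by these numbers. Nothing ties a column to a single sample record.

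Libraries held 21507911 to 28392184 counts and the groups overlapped in depth. Sox2 itself, the targeted gene, was at 19.9, 14.8 and 29.5 CPM (read counts relative to library size, scaled by TMM) in Ctrl libraries 2, 4 and 6. It fell to 3.16, 2.69 and 2.98 CPM in Sox2 cKO libraries 1, 3 and 5, an order of libraries kept throughout. Its log2 fold change was -2.86 (SE 0.24, adjusted p = 0.00096), and the groups did not overlap. Markers of neurons, oligodendrocytes and astrocytes, the cells that fill the cord, were all above 0. In every comparison below, fold changes are Sox2 cKO over Ctrl on the log2 scale. Adjusted p is from edgeR's quasi-likelihood test over 16137 genes, with a threshold of 0.05. SE is a standard error derived from that test, as the size of the log2 fold change divided by the square root of the F statistic. In bulk tissue, fewer cells of a type and less RNA per cell cannot be told apart.

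Cells that respire make superoxide, which superoxide dismutases turn into hydrogen peroxide. Catalase, glutathione peroxidases and peroxiredoxins then remove the peroxide. The glutathione peroxidases and peroxiredoxins draw electrons from glutathione or thioredoxin, and glutathione transferases attach glutathione to reactive compounds. In the central nervous system astrocytes are a main store of glutathione and of metallothioneins, small cysteine-rich proteins that bind zinc and copper, and the transcription factor NRF2 raises many of these genes under oxidative or electrophilic stress.

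Of the 44 genes, 18 were higher in Sox2 cKO (40.9%, against 12.2% of all genes tested) and 2 were lower, Sod2 and Slc7a11 (4.55%, against 12.4%). The other 24 did not pass the test. The genes that rose were Sod1, Sod3, Gpx1, Gpx3, Gpx4, Prdx1, Prdx2, Prdx5, Txn1, Gsta4, Gstm1, Gstm5, Gstm7, Gstp1, Gstz1, Mt1, Mt2 and Mt3. The median log2 fold change was 0.31 over the 44 and 0.02 over all genes tested, and 38 of the 44 values were above 0. By CPM alone, the groups did not overlap and Sox2 cKO was higher for 20 genes (45.5%, against 22.6% of all genes tested), and lower for 3 genes (6.82%, against 22.1%). The metallothioneins Mt1 and Mt2, the cytosolic thioredoxin Txn1 and the cytosolic peroxiredoxin Prdx2 had the largest log2 fold changes among the genes that passed.

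Gene length bears on every count above. Gene length here is the length by which the deposited FPKM divide the counts of a gene. Across all genes tested the log2 fold change fell with gene length (Spearman's rho across genes, -0.48). Short genes thus tended to be higher and long genes lower in Sox2 cKO. The 44 genes were short, with a median length of 1427 bases against 3060 for all genes tested, and 38 of them were below that median. Of the 3228 shortest genes (66 to 1708 bases) 30.4% were called higher, and 15 of the 29 antioxidant genes among them were (51.7%). Of the 3227 next shortest 15.4% were called higher, and 2 of 7 antioxidant genes were. After a correction that removed the trend with length from each library, 8 of the 44 genes were higher (18.2%, against 6.08% of all genes tested) and 1, Cat, was lower (2.27%, against 6.99%). The 8 genes were Gstm1, Gstm5, Mt1, Mt2, Prdx1, Prdx2, Sod3 and Txn1, and all 8 had been called without the correction. Without Ctrl library 2 the corrected fit called 14 of the 44 higher and 2 lower, and 2127 of all 16590 genes higher. Without Sox2 cKO library 5 it called 4 of the 44 and 533 of all 16339 genes higher, and without Ctrl library 6 it called 1 and 32. Without Ctrl library 4, Sox2 cKO library 1 or Sox2 cKO library 3 it called 0 of the 44 higher, and 4, 3 and 18 of all genes. Of the 44 genes, 15, 14 and 16 then had an unadjusted p below 0.05. Corrected calls over all genes thus moved with those of the 44. DESeq2, without the correction, called 13 to 23 of the 44 and 886 to 2609 of all genes higher when a library was left out. With all libraries, the corrected median log2 fold change was 0.11 against 0.00 for all genes. Among the shortest genes the corrected count was 6 of 29 (20.7%), against 7.13% of all genes there. The cause of the trend was not tested, and corrected values are given beside the calls of the 44 genes, and corrected counts beside those of the lists.

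**Figure D1:**
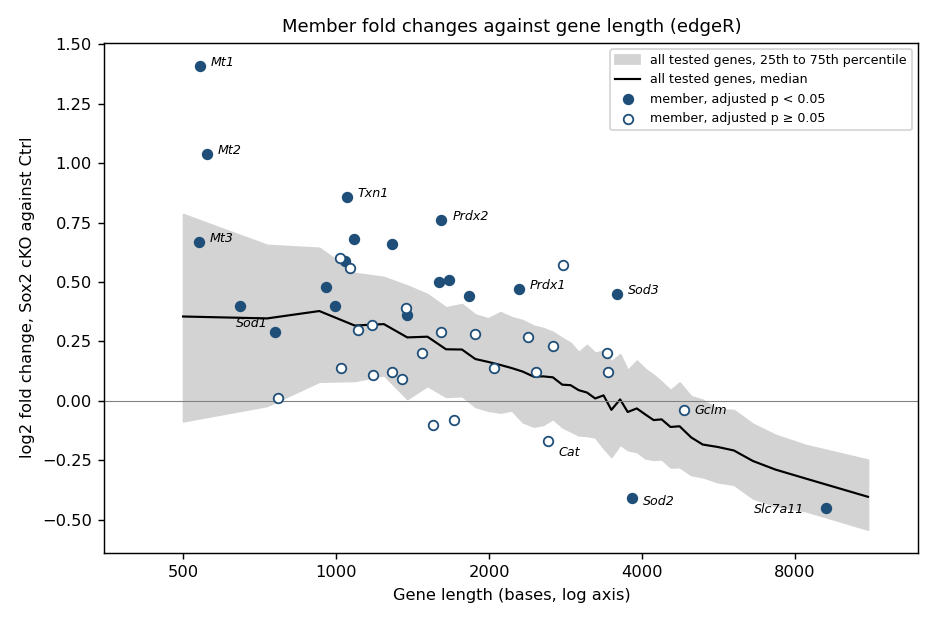
Log2 fold change (Sox2 cKO over Ctrl) against gene length in bases on a log axis, for the 44 antioxidant genes (points, filled where they passed the edgeR test), with the median (line) and the middle of the distribution (band) of all genes tested. The median of all genes falls from 0.30 in the 3228 shortest to -0.25 in the 3228 longest, and most of the 44 genes lie at the short end, with Mt1, Mt2, Txn1 and Prdx2 above the trend.

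The libraries differed within groups. Ctrl library 2 held the highest Ctrl value for 36 of the 44 genes and for all 18 that rose, and its deviation from the mean of all libraries followed length with a Spearman's rho of 0.12 across genes. That rho was 0.48 in Ctrl library 4 and 0.40 in Ctrl library 6, and ran from -0.48 to -0.32 in the Sox2 cKO libraries. Without Ctrl library 2, edgeR called 24 of the 44 higher and 2 lower, and 3030 of all 16590 genes tested higher. Without Sox2 cKO library 1 it called 0, although 22 had an unadjusted p below 0.05 and DESeq2 called 13 higher, but it then called only 3 of all 16482 genes tested higher. Without Ctrl library 4 it called 2 of the 44 and 13 of all 16373 genes higher. Counts of the 44 and of all genes were 6 and 602 without Ctrl library 6, 9 and 698 without Sox2 cKO library 3, and 15 and 1329 without Sox2 cKO library 5, so that calls over all genes moved with those of the 44. DESeq2 called 20 higher and 2 lower with all libraries, against 12.9% and 15.2% of all genes it tested. All 18 genes that rose had a log2 fold change above 0 in every one of these fits without the length correction, while Gstp1 and, without Ctrl library 4, also Sod1 fell below 0 with it.

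**Figure D2:**
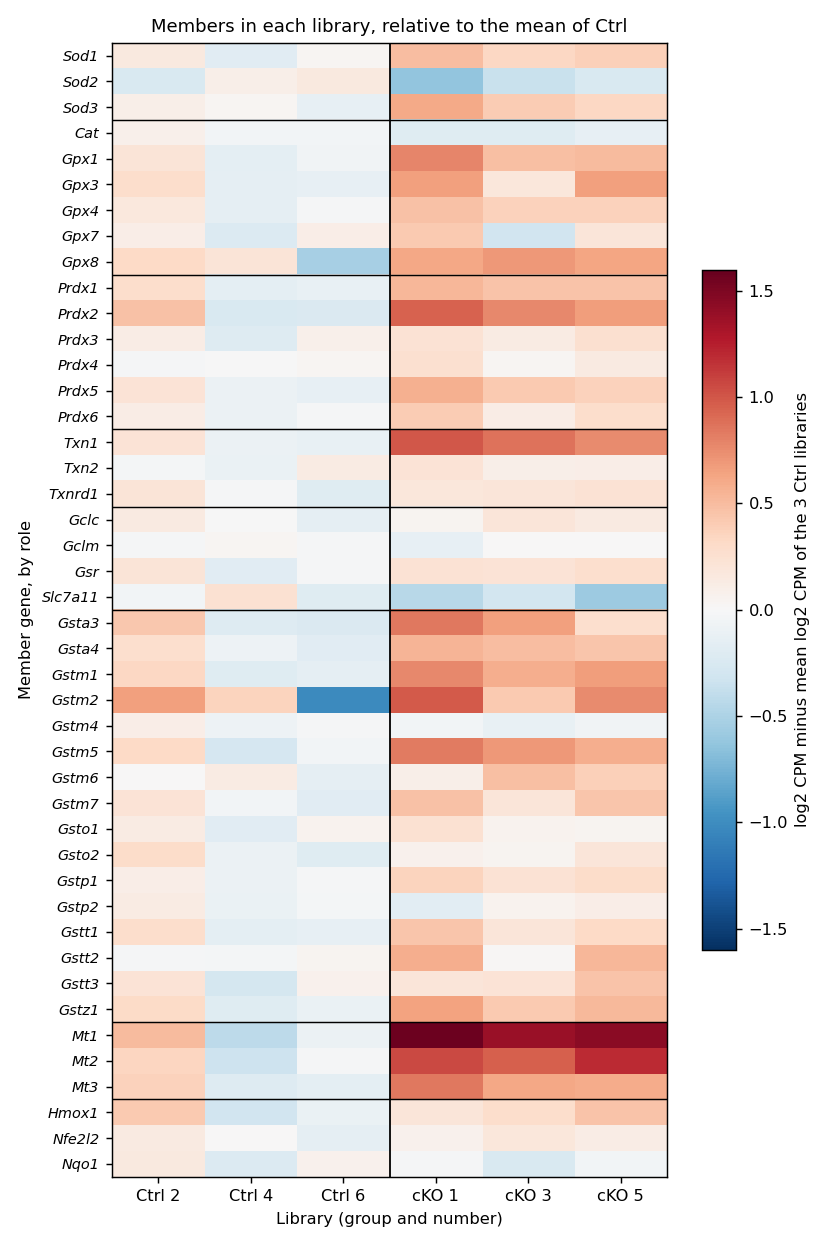
Level of each of the 44 genes in each of the 6 libraries, as its log2 CPM minus the mean of the Ctrl libraries (red higher, blue lower), with genes in rows by role and libraries in columns by group. The Mt1 row shows the largest difference between groups (log2 fold change 1.41), and Ctrl library 2 is the highest Ctrl library for 36 of the 44 genes.

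The 3 superoxide dismutases all passed the test, in different directions. Sod1, the copper and zinc enzyme of the cytosol (chromosome 16, 90220754 to 90226329 in mm10), was at 188, 148 and 172 CPM in Ctrl and 238, 212 and 219 CPM in Sox2 cKO. The groups did not overlap, and the log2 fold change was 0.40 (SE 0.10, adjusted p = 0.022). After the length correction it was 0.01 (adjusted p = 0.94), which did not pass. Sod3, the extracellular enzyme, was at 17.6, 16.7 and 15.002 CPM in Ctrl and 24.97, 21.7 and 20.6 CPM in Sox2 cKO, with a log2 fold change of 0.45 (SE 0.11, adjusted p = 0.02). Its gene length of 3570 bases is above that of most genes, and the corrected value was 0.47 (adjusted p = 0.025). Sod2, the manganese enzyme of mitochondria, was at 180.2, 226 and 236 CPM in Ctrl and 137, 167 and 179 CPM in Sox2 cKO. All Ctrl values lay above all Sox2 cKO values, although Ctrl library 2 and Sox2 cKO library 5 were close, and the log2 fold change was -0.41 (SE 0.13, adjusted p = 0.04) and -0.37 (adjusted p = 0.06) with the correction. On the scale of FPKM, which divides by length, Sod1 was the highest of the 3, at 254 ± 34.7 in Ctrl and 358 ± 28.2 in Sox2 cKO (SD, n = 3).

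Catalase removes hydrogen peroxide, glutathione peroxidases reduce hydrogen peroxide or lipid peroxides, and 3 of these 6 genes rose. Gpx1, the cytosolic and mitochondrial selenoenzyme, was at 50.7, 39.5 and 42.1 CPM in Ctrl and 75.5, 61.3 and 62.3 CPM in Sox2 cKO, with no overlap and a log2 fold change of 0.59 (SE 0.12, adjusted p = 0.013). Gpx4, which reduces lipid peroxides in membranes and was the glutathione peroxidase with the highest FPKM, was at 251, 202 and 220.1 CPM in Ctrl and 308, 289 and 288 CPM in Sox2 cKO. Its log2 fold change was 0.40 (SE 0.10, adjusted p = 0.019). Gpx3, a secreted enzyme, was at 23.3, 17.3 and 17.6 CPM in Ctrl and 30.3, 21.7 and 30.2 CPM in Sox2 cKO. Its groups overlapped through Ctrl library 2 and Sox2 cKO library 3, and its log2 fold change was 0.50 (SE 0.16, adjusted p = 0.042). With the length correction none of the 3 passed, at 0.26 (adjusted p = 0.052) for Gpx1, 0.06 (adjusted p = 0.57) for Gpx4 and 0.27 (adjusted p = 0.18) for Gpx3.

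Catalase (Cat), the peroxisomal enzyme, was at 95.1, 86.8 and 87.4 CPM in Ctrl and 78.7, 78.6 and 81.6 CPM in Sox2 cKO. Every Ctrl value was above every Sox2 cKO value, with a log2 fold change of -0.17 (SE 0.07, adjusted p = 0.1), which did not pass, and -0.26 (adjusted p = 0.025) with the correction, which did. Gpx8 and Gpx7, both of the endoplasmic reticulum, did not pass, with log2 fold changes of 0.60 and 0.12. Gpx8 missed the threshold narrowly (adjusted p = 0.05 after rounding) and passed with DESeq2 (adjusted p = 0.027).

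All 6 peroxiredoxins had log2 fold changes above 0, and 3 passed. Prdx2, a cytosolic peroxidase that is abundant in neurons and red blood cells, was at 118, 72.3 and 72.5 CPM in Ctrl and 164, 145 and 136 CPM in Sox2 cKO, with a log2 fold change of 0.76 (SE 0.17, adjusted p = 0.017). Ctrl library 2 lay between the other Ctrl libraries and the Sox2 cKO libraries. Prdx1, its close cytosolic relative, was at 155, 115 and 118 CPM in Ctrl and 185, 177 and 176 CPM in Sox2 cKO, with a log2 fold change of 0.47 (SE 0.11, adjusted p = 0.02). Prdx5, found in mitochondria, peroxisomes and cytosol, had the highest FPKM of the family, at 127 ± 20.8 in Ctrl and 186 ± 17.2 in Sox2 cKO (SD, n = 3). Its CPM were 278, 225 and 218 in Ctrl and 353, 319 and 309 in Sox2 cKO, and its log2 fold change was 0.44 (SE 0.11, adjusted p = 0.019). None of the 3 overlapped between groups. With the length correction Prdx2 and Prdx1 still passed, at 0.54 (adjusted p = 0.034) and 0.35 (adjusted p = 0.037), and Prdx5 did not, at 0.26 (adjusted p = 0.052). The mitochondrial Prdx3, the secretory-pathway Prdx4 and Prdx6, which reduces phospholipid peroxides, had log2 fold changes of 0.20, 0.14 and 0.27 and did not pass. Prdx6 passed with DESeq2 (adjusted p = 0.041). The red blood cell genes, Hba and Hbb globins among them, summed to 58.1 to 167.0 CPM in Ctrl and 78.33 to 99.6 CPM in Sox2 cKO, and of the 6 tested 0 passed in edgeR, 0 passed in DESeq2 and 0 had an unadjusted p below 0.05.

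Thioredoxin passes electrons to peroxiredoxins, and thioredoxin reductase recharges it with NADPH. Txn1, the cytosolic thioredoxin (ENSMUSG00000028367, chromosome 4, 57943373 to 57956411 in mm10), was at 40.1, 32.2 and 31.6 CPM in Ctrl and 68.2, 62.6 and 57.9 CPM in Sox2 cKO. The groups stood well apart, and the log2 fold change was 0.86 (SE 0.11, adjusted p = 0.0087), the smallest adjusted p among the 44 genes. After the length correction it was 0.53 (adjusted p = 0.014). The mitochondrial Txn2 was at 66.04, 62.7 and 73.6 CPM in Ctrl and 78.4, 71.7 and 72.2 CPM in Sox2 cKO, with overlap and a log2 fold change of 0.14 (SE 0.08, adjusted p = 0.25). The reductase Txnrd1 was at 88.7, 75.5 and 67.05 CPM in Ctrl and 87.1, 87.97 and 89.7 CPM in Sox2 cKO. Ctrl library 2 lay within the range of the Sox2 cKO libraries, and its log2 fold change of 0.20 (SE 0.10, adjusted p = 0.17) did not pass.

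None of the 4 genes that supply and recycle glutathione rose. Slc7a11, the cystine importer that feeds glutathione synthesis, was at 34.4, 41.8 and 30.97 CPM in Ctrl and 26.1, 28.8 and 23.7 CPM in Sox2 cKO, without overlap. Its log2 fold change was -0.45 (SE 0.12, adjusted p = 0.028), and at 9227 bases it was the longest of the 44 genes. With the length correction the value was -0.10 (adjusted p = 0.61). Gclc and Gclm, the catalytic and modifier subunits of glutamate-cysteine ligase, which makes the rate-limiting step of glutathione synthesis, did not pass. Gclc was at 61.3, 55.2 and 50.3 CPM in Ctrl and 57.04, 63.2 and 61.2 CPM in Sox2 cKO, with a log2 fold change of 0.12 (SE 0.09, adjusted p = 0.34). Gclm was at 91.01, 94.3 and 90.98 CPM in Ctrl and 84.3, 92.8 and 92.4 CPM in Sox2 cKO, with a log2 fold change of -0.04 (SE 0.07, adjusted p = 0.75), and both genes overlapped between groups. Gsr, the reductase that regenerates glutathione, was at 26.7, 20.3 and 22.7 CPM in Ctrl and 27.1, 26.8 and 27.8 CPM in Sox2 cKO. The Sox2 cKO values were all higher, by little over Ctrl library 2, and the log2 fold change was 0.23 (SE 0.11, adjusted p = 0.14).

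Of the 16 glutathione transferases, 6 rose and 10 did not pass. The cytosolic mu class, of which 6 genes on chromosome 3 over 149.0 kb (107895821 to 108044894 in mm10) reached the count minimum and Gstm3, with 1 count, did not, held 3 of the 6 that rose. Gstm1, highest by FPKM in its class, was at 146, 101 and 105 CPM in Ctrl and 198, 173 and 185 CPM in Sox2 cKO, with a log2 fold change of 0.66 (SE 0.13, adjusted p = 0.014). Gstm5 was at 61.2, 40.7 and 47.8 CPM in Ctrl and 87.4, 79.6 and 73.4 CPM in Sox2 cKO, with a log2 fold change of 0.68 (SE 0.14, adjusted p = 0.013). Neither overlapped between groups, and both passed with the length correction, at 0.38 (adjusted p = 0.032) and 0.36 (adjusted p = 0.037). Gstm7 was at 54.5, 45.4 and 41.3 CPM in Ctrl and 64.8, 53.5 and 63.6 CPM in Sox2 cKO, and overlapped through Ctrl library 2 and Sox2 cKO library 3. Its log2 fold change was 0.36 (SE 0.12, adjusted p = 0.044), and 0.10 (adjusted p = 0.48) with the correction. Gstm2, Gstm4 and Gstm6 were at 1.35 to 9.32 CPM and had log2 fold changes of 0.56, -0.08 and 0.32. Mu-class sequences are alike, so reads may have been shared between them, and how the authors' counting split such reads is uncertain. Within 100 kb of the cluster, 4 other genes were tested and 0 passed in edgeR (0 in DESeq2, and 0 with an unadjusted p below 0.05), with log2 fold changes of -0.04 to 0.18.

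Outside the mu class, Gsta4, an alpha-class enzyme that acts on the lipid peroxidation product 4-hydroxynonenal, was at 64.1, 50.3 and 47.3 CPM in Ctrl and 78.1, 75.2 and 72.9 CPM in Sox2 cKO, with a log2 fold change of 0.48 (SE 0.11, adjusted p = 0.016). Gstp1, the pi-class enzyme, was at 90.8, 79.3 and 83.2 CPM in Ctrl and 108, 99.3 and 103 CPM in Sox2 cKO. Its log2 fold change was 0.29 (SE 0.08, adjusted p = 0.027) and turned to -0.09 (adjusted p = 0.3) with the length correction. Gstz1, the zeta-class enzyme of tyrosine breakdown, was at 28.2, 20.1 and 21.3 CPM in Ctrl and 35.9, 30.6 and 32.7 CPM in Sox2 cKO, with a log2 fold change of 0.51 (SE 0.13, adjusted p = 0.023). The groups did not overlap for any of the 3, and none passed with the correction, with 0.14 (adjusted p = 0.24) for Gsta4 and 0.30 (adjusted p = 0.074) for Gstz1. Gsto1, the main omega-class gene, was at 18.7, 15.2 and 17.8 CPM in Ctrl and 20.3, 17.9 and 17.6 CPM in Sox2 cKO, and Gstt1, the main theta-class gene, at 9.46, 7.02 and 7.14 CPM and 10.6, 8.90 and 9.70 CPM. Both overlapped between groups, with log2 fold changes of 0.11 (adjusted p = 0.5) and 0.30 (adjusted p = 0.17). Gsta3, Gsto2, Gstp2, Gstt2 and Gstt3 stayed at 5.62 CPM or below in every library and did not pass, and Gstp2, a near copy of Gstp1, is uncertain for the same reason as the mu class.

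The 3 metallothioneins lie within 27.7 kb on chromosome 8 (94152607 to 94180327 in mm10), have gene lengths of 538 to 556 bases, and were the 3 highest of the 44 genes by FPKM. Mt1 and Mt2 are the widely expressed, metal- and stress-inducible forms, and Mt3 is a form typical of the central nervous system. Their promoters are shown because the 3 genes moved by different amounts and because metallothionein promoters are known for metal response elements, the sites at which zinc, by way of the factor MTF1, drives these genes. Each window runs from 250 bases before to 50 bases after the RefSeq start on the plus strand of GRCm38.p6, and the capitals mark every match to the core of the metal response element, TGCACNC or TGCGCNC on either strand.
Mt1, chr8:94178839-94179138: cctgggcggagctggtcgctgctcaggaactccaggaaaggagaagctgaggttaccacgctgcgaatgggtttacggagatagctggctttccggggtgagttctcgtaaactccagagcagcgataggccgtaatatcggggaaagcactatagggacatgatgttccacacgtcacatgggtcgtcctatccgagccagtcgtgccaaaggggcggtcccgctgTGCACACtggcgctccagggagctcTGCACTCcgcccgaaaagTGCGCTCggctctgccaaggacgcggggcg
Mt2, chr8:94172368-94172667: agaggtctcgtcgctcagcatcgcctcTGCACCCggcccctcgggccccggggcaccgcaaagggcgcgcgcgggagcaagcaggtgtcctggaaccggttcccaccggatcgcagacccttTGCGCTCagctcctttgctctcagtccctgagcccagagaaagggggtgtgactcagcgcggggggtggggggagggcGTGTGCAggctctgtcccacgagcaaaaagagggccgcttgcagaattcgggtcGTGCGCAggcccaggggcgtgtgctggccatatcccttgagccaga
Mt3, chr8:94152357-94152656: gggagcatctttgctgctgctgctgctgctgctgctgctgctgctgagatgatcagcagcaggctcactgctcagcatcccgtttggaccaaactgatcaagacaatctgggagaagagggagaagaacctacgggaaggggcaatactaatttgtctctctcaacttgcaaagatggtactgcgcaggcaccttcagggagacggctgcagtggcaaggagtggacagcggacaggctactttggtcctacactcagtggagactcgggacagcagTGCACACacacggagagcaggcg
The Mt2 window held 4 matches, the Mt1 window 3 and the Mt3 window 1. Of 32851 promoter windows of the same length, 25.7% held at least 1 match and 1.97% held 3 or more, so a single match such as that of Mt3 is common. A match describes letters only and is no evidence of binding, and a link between matches and fold changes was not tested.

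Mt1 was at 353, 186 and 232 CPM in Ctrl and at 733, 646 and 673 CPM in Sox2 cKO. All Sox2 cKO values were far above the highest Ctrl value, that of library 2. The log2 fold change was 1.41 (SE 0.19, adjusted p = 0.01), a 2.66-fold difference, and 1.03 (adjusted p = 0.015) with the length correction. In FPKM Mt1 was at 462 ± 167 in Ctrl and 1313 ± 110.0 in Sox2 cKO (SD, n = 3).

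Mt2 was at 284, 179 and 221 CPM in Ctrl and 465, 435 and 512 CPM in Sox2 cKO, with a log2 fold change of 1.04 (SE 0.15, adjusted p = 0.012), or 2.06-fold, and 0.66 (adjusted p = 0.018) with the correction. Mt3 was at 332, 222 and 232 CPM in Ctrl and 463, 395 and 389.6 CPM in Sox2 cKO, with a log2 fold change of 0.67 (SE 0.15, adjusted p = 0.015). The groups did not overlap for either gene. With the correction Mt3 did not pass, at 0.27 (adjusted p = 0.11). In summed CPM the metallothioneins held 969.3, 586.9 and 685.5 CPM in Ctrl and 1661, 1476 and 1575 CPM in Sox2 cKO. The share of Mt1 in the summed CPM of all 44 genes was 7.98 ± 1.61% in Ctrl and 14.99 ± 0.292% in Sox2 cKO (SD, n = 3). Within 100 kb, the 3 other genes tested, Bbs2, Nup93 and Ogfod1, had log2 fold changes of -0.05 to 0.47, and 1 of them passed.

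Ratios of 2 genes of like length within a library do not depend on scaling, and a trend with length bears on both genes nearly alike. Pairs of the same role whose lengths differed by less than 10% and whose mean count was at least 50 were compared, a choice made after the trend had been seen. Of 30 pairs, 14 did not overlap between groups (46.7%), close to the 44.7% of single genes tested whose CPM did not overlap in either direction. The share of single genes is from CPM without the length correction, so the 2 shares are unlike measures. Many pairs also shared a gene and were not independent. With 3 libraries against 3, the exact permutation test (two-sided) cannot give a p below 0.1, which these 14 pairs reached, and adjusted over the 30 pairs that p is 0.21. The ratio of Mt1 to Mt3 was 1.07, 0.835 and 1.002 in Ctrl and 1.58, 1.64 and 1.73 in Sox2 cKO, a 1.71-fold difference. The ratio of Mt2 to Mt3 differed 1.30-fold, from 0.858, 0.803 and 0.955 in Ctrl to 1.003, 1.10 and 1.31 in Sox2 cKO. Mt1 and Mt2 thus stood higher relative to Mt3 in every Sox2 cKO library than in any Ctrl library.

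The ratio of Prdx2 to Prdx3 was 1.72, 1.31 and 1.08 in Ctrl and 2.20, 2.09 and 1.79 in Sox2 cKO, a 1.501-fold difference. The ratio of Sod2 to Sod3 was 10.3, 13.5 and 15.7 in Ctrl and 5.48, 7.66 and 8.67 in Sox2 cKO, a log2 difference of -0.86. The ratios of Gstm1 and Gstm5 to Gsto1 differed 1.48-fold and 1.502-fold, again without overlap, while that of Hmox1 to Nqo1 overlapped between groups.

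**Figure D3:**
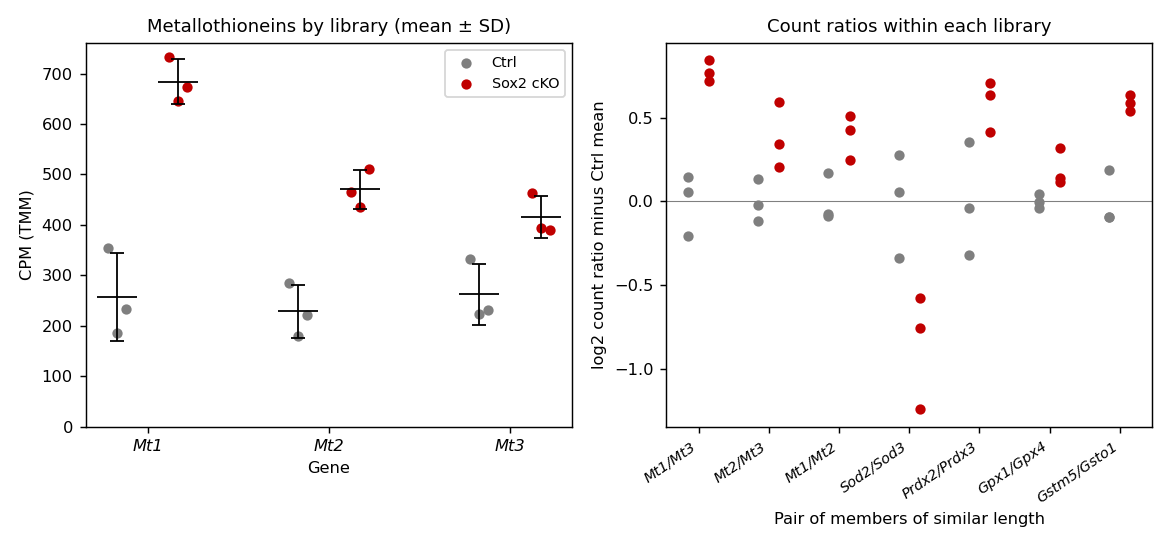
Left, CPM of Mt1, Mt2 and Mt3 in each library (points) with the mean and SD of each group, and right, count ratios of length-matched genes in each library, as log2 minus the Ctrl mean. Mt1 reaches 646 to 733 CPM in the Sox2 cKO libraries against 186 to 353 CPM in Ctrl. The pairs drawn were taken from the 14 of 30 that did not overlap between groups, so each lies on 1 side of Ctrl by that choice.

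Nfe2l2 and the NRF2 targets Nqo1 and Hmox1 did not pass. Nfe2l2, which encodes NRF2, was at 29.4, 26.7 and 24.2 CPM in Ctrl and 27.99, 30.2 and 28.99 CPM in Sox2 cKO, with a log2 fold change of 0.12 (SE 0.10, adjusted p = 0.38). Nqo1, a quinone reductase widely read as an NRF2 target, was at 12.4, 9.55 and 11.6 CPM in Ctrl and 11.01, 9.44 and 10.8 CPM in Sox2 cKO, with a log2 fold change of -0.10 (SE 0.14, adjusted p = 0.61). Hmox1, the inducible haem oxygenase, was at 7.62, 4.61 and 5.31 CPM in Ctrl and 6.54, 6.95 and 7.85 CPM in Sox2 cKO, with a log2 fold change of 0.29 (SE 0.19, adjusted p = 0.3). All 3 overlapped between groups, and a p that misses the threshold does not show that the groups were alike. The core of the antioxidant response element that NRF2 binds, TGACNNNGC on either strand, was found in the promoter windows of 9 of the 37 genes with a window (9 of their 50 windows, 18.0%, against 12.4% of all windows): Gclm, Gsta3, Gstm5, Gstm7, Mt2, Nfe2l2, Prdx1, Sod1 and Txnrd1. Of these 9, Gstm5, Gstm7, Mt2, Prdx1 and Sod1 had risen, and of all 44 genes, including those without a window, 18 had (40.9%). A link between the motif and the rise was not tested. The SOX core ACAAAG was found in 10 of the 50 windows (20.0%), against 18.7% of all windows. Matches of different motifs overlapped in the windows of Gclm, Gstm7 and Txnrd1.

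**Figure D4:**
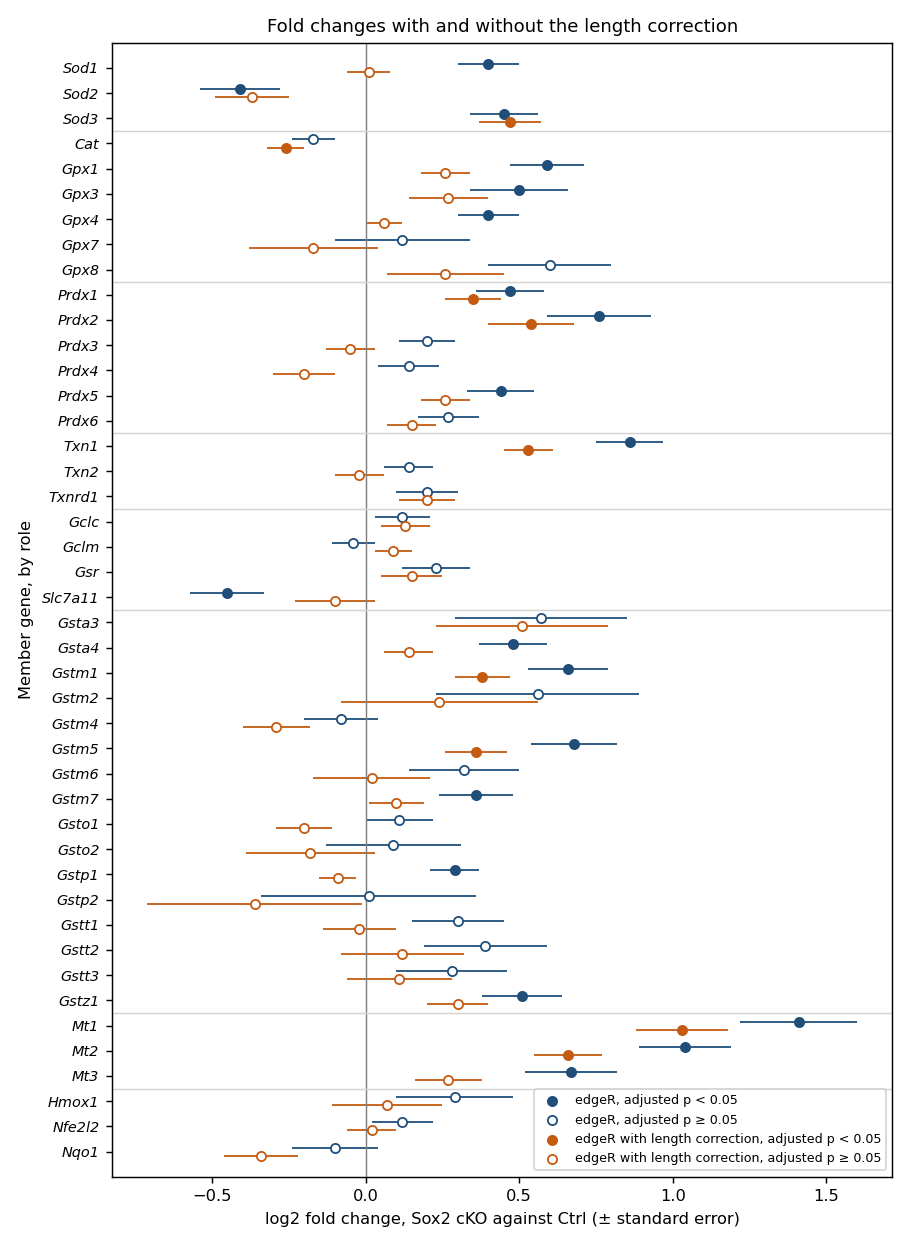
Log2 fold change (Sox2 cKO over Ctrl) of the 44 genes by role, without (blue) and with (orange) the length correction, filled where the adjusted p is below 0.05, with bars of 1 SE. Mt1 is highest on both scales, at 1.41 and 1.03, and the glutathione supply genes and NRF2 with its targets have values on both sides of 0.

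The other genes of these pathways were read from 8 lists, chosen with earlier results of these data known. Of 114 distinct genes, 110 were tested, and 18 were higher (16.4%, against 12.2% of all genes tested) and 12 lower (10.9%, against 12.4%). After the length correction 7 were higher (6.36%, against 6.08%) and 9 lower (8.18%, against 6.99%), close to the shares over all genes. Of 14 further genes of glutathione supply and turnover, 0 passed in edgeR and 0 in DESeq2, 6 had an unadjusted p below 0.05 in edgeR, and the median log2 fold change was 0.05, while 1 rose and 0 fell with the correction. Of 14 glutathione-linked enzymes tested, 4 rose and 0 fell, or 1 and 1 with the correction, and Glrx2, a mitochondrial glutaredoxin, passed with and without the correction, at 0.27 (adjusted p = 0.042) and 0.32 (adjusted p = 0.03). Of 16 genes of the thioredoxin system and of oxidised protein repair, 6 rose and 1 fell, and with the correction 1 rose (Sesn1) and 1 fell (Sesn3). The sestrins, which link stress to growth signalling, went in opposite directions, with Sesn3 at -0.82 (adjusted p = 0.013) and Sesn1 at 0.48 (adjusted p = 0.028), or -0.96 (adjusted p = 0.018) and 0.47 (adjusted p = 0.039) with the correction.

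NADPH supplies the electrons for both thioredoxin and glutathione reductase, and of 13 genes of its supply 2 rose and 3 fell, or 1 and 3 with the correction. Mthfd2, a mitochondrial enzyme of one-carbon metabolism, rose, with 32.2 ± 0.903 CPM in Ctrl and 51.1 ± 3.53 CPM in Sox2 cKO (SD, n = 3) and a log2 fold change of 0.67 (adjusted p = 0.0087). Nadk2, the mitochondrial NAD kinase, was at -0.43 (adjusted p = 0.013), the transketolase Tkt at -0.38 (adjusted p = 0.022) and the cytosolic Mthfd1 at -0.29 (adjusted p = 0.031). All 4 passed with the correction too, at 0.51 (adjusted p = 0.018), -0.40 (adjusted p = 0.019), -0.39 (adjusted p = 0.026) and -0.29 (adjusted p = 0.035).

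Among 13 regulators of NRF2, 1 rose (Maff) and 4 fell (Mafk, Nfe2l1, Btrc and Gsk3b), and with the correction 0 rose and only Gsk3b fell. The repressor Keap1, named here after its value was seen, had a log2 fold change of -0.18 and did not pass (adjusted p = 0.15). Gsk3b, a kinase that marks NRF2 for breakdown, was at -0.72 (adjusted p = 0.015) and, with the correction, -0.40 (adjusted p = 0.034). Of 12 further NRF2-inducible genes, 2 rose (Cbr1 and Ftl1) and 0 fell, whereas with the correction 0 rose and 1 fell (Ephx1, at -0.39, adjusted p = 0.019).

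Of 17 genes of zinc and copper handling, 2 rose and 2 fell, or 3 and 2 with the correction. Atox1, the chaperone that hands copper to the ATP7 pumps, was at 28.96, 15.4 and 15.1 CPM in Ctrl and 47.2, 46.5 and 43.97 CPM in Sox2 cKO, without overlap. Its log2 fold change was 1.21 (adjusted p = 0.012), and 0.83 (adjusted p = 0.024) with the correction. Slc30a3, a transporter that loads zinc into synaptic vesicles, was at 0.54 (adjusted p = 0.015) and the zinc importer Slc39a1 at -0.40 (adjusted p = 0.035), with corrected values of 0.39 (adjusted p = 0.032) and -0.52 (adjusted p = 0.027). Mtf1, the factor that binds metal response elements and likewise named after its value was seen, had a log2 fold change of -0.40 (adjusted p = 0.017) without the correction and -0.11 (adjusted p = 0.32) with it. Of 12 tested sources of oxidants, 1 rose (Ncf4) and 2 fell (Maoa and Nos1), and with the correction 0 passed in either direction.

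Markers of several cell types moved with the groups. The 10 astrocyte markers summed to 8444 to 10240 CPM in Ctrl and 6500 to 6731 CPM in Sox2 cKO, with 5 lower (Gfap, Aqp4, Aldh1l1, Slc1a2 and Slc1a3) and 1 higher (S100b), and with the length correction 2 lower (Gfap and Aqp4) and 0 higher. Of 5 neutrophil markers tested 4 were higher (3 with the correction), and the list summed to 10.03 to 15.83 CPM in Ctrl and 20.08 to 63.36 CPM in Sox2 cKO. Of 5 oligodendrocyte precursor markers 4 were lower (2 with the correction), and the list summed to 163.9 to 180.9 CPM in Ctrl and 108.5 to 135.2 CPM in Sox2 cKO. Endothelial markers summed to 157.4 to 183.0 CPM and 172.1 to 246.2 CPM, with 1 of 6 higher (Ly6c1, also with the correction). Meningeal fibroblast markers, of which 0 of 6 passed in edgeR or in DESeq2 and 0 had an unadjusted p below 0.05, summed to 201.9 to 545.8 CPM in Ctrl, lowest in library 6, and 431.6 to 571.9 CPM in Sox2 cKO. Of the neuron, oligodendrocyte, microglia and Schwann cell markers 0 passed in edgeR, while DESeq2 called 2, 3, 3 and 0 of them and 2, 2, 4 and 0 had an unadjusted p below 0.05 in edgeR. With the correction 1 neuron marker was higher, and 2 oligodendrocyte markers and 1 microglia marker were lower. Of 5 ependymal markers 1 (Foxj1) was lower with and without it. No marker was at 0 in all libraries. The part of these cell types in the changes of the antioxidant genes was not tested.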

How the data were processed

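RNA of spinal cord from 3 Ctrl and 3 Sox2 cKO mice was sequenced from poly(A) RNA with a directional, single-end library protocol. Per the labels the RNA integrity number was above 6.8, and the study's methods give a higher minimum. The authors aligned the reads to mm10 with STAR 2.5 and deposited read counts per gene from HTSeq 0.6.1, not normalized, together with FPKM values. Whether counting used the strand is not given in the sources used here, so reads of overlapping antisense genes cannot be told apart. Lengths recovered by dividing the deposited counts by FPKM were whole numbers within 0.01 for 24442 genes. There were 0 unused columns of samples. Columns were put in groups by the last digit of their names, taken as a mouse number, and the columns carry no pairing, litter, sex or batch. The methods describe littermate controls and both sexes in each group. The edgeR p-values set the difference between groups against the spread between these libraries, estimated in part across all genes.

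Gene names, types and positions came from GENCODE M21 (build GRCm38), which held 34490 of 35275 identifiers. The members and the lists were chosen with earlier results of these data known. The test was that of edgeR 4.0.16 in R 4.3.3 (filterByExpr, TMM, glmQLFit and glmQLFTest, no covariates), with Benjamini-Hochberg adjustment over the 16137 genes tested. CPM were scaled by TMM. Full values are given for members with an adjusted p below 0.05, the member of highest FPKM in each family, the metallothioneins and the genes picked singly, and for at most 4 genes of each other list that passed with and without the length correction. That correction fitted, in each library, a lowess curve (span 0.3) of log2 CPM deviations on log length and used it as an offset in edgeR. DESeq2 1.42.0 and limma 3.58.1, on log2(FPKM + 1) or log2(FPKM + 0.1) keeping genes whose mean FPKM reached 0.5, were alternatives, as were other normalizations, filters, a GC correction and leaving out each library. The comparison of length-matched pairs and the shares of the summed CPM were added after the data were seen. On simulated counts with 198 genes changed by a log2 fold of 1, edgeR recovered 86.4%, and 3.93% of its calls were unchanged genes. With a trend of length added, 85.1% of calls were unchanged genes without the correction and 4.49% with it. The added trend was the same in every Sox2 cKO library and absent from Ctrl, whereas in the data it differed between libraries. The simulation therefore cannot show how well the correction serves these data. Promoter windows are those of RefSeq on GRCm38.p6, found for 37 of the 44 members. With 3 libraries a group, an exact permutation test of a single value cannot give a p below 0.1.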

Additional observations from a re-analysis of the deposited data

How the results depend on the processing

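With all 6 libraries, the count of antioxidant genes higher in Sox2 cKO was 18 in the edgeR fit, against 1962 of all genes. It was 18 to 20 under the other count normalizations, filters and tests, against 1878 to 2670 of all genes, apart from the following. With the length correction it was 8, against 981 of all genes. Limma on log2(FPKM + 1) without a filter on low values called 0 antioxidant genes in either direction, against 7 of all genes higher. Of the antioxidant genes, 30 still had an unadjusted p below 0.05 there. The count lower was 2, against 1652 to 2348 of all genes, and 1 with the length correction, against 1128. It was 0 with limma on log2(FPKM + 1) or log2(FPKM + 0.1) with a filter, against 915 and 896 of all genes. Over the further pathway lists the count in either direction was 30, 16 with the length correction and 1 with limma without a filter. The same counts over all genes were 3970, 2109 and 7. The median log2 fold change was 0.31 and 0.11 with the length correction. Leaving out 1 library, with edgeR, DESeq2 or the length correction, moved the count higher between 0 and 24, the count lower between 0 and 2, the list count between 0 and 47 and the median between 0.07 and 0.43. Over all genes the count higher then ran from 3 to 3030, the count lower from 5 to 3089 and the count in either direction from 8 to 6119. The cause of these shifts was not tested, beyond the smaller number of libraries. Signs turned for Gstp2 (-0.01 with DESeq2, -0.03 with the GC correction, -0.00 with RLE size factors and -0.36 with the length correction), for Gclm (0.01 with upper quartile scaling, 0.06 with limma at either pseudocount and 0.09 with the length correction), and with limma for Nqo1 (0.00) and Gstm4 (0.02). With the length correction they also turned for Gstt1 (-0.02), Txn2 (-0.02), Prdx3 (-0.05), Gsto1 (-0.20), Gsto2 (-0.18), Prdx4 (-0.20), Gpx7 (-0.17) and Gstp1 (-0.09). When a library was left out, log2 fold changes ranged over both signs for Gclm (-0.08 to 0.12), Gpx7 (-0.29 to 0.31), Gstm2 (-0.09 to 0.89), Gstm6 (-0.08 to 0.43), Gsto1 (-0.25 to 0.17), Gsto2 (-0.25 to 0.25), Gstp1 (-0.09 to 0.35), Gstp2 (-0.42 to 0.08), Gstt1 (-0.06 to 0.46), Gstt3 (-0.01 to 0.40), Hmox1 (-0.06 to 0.52), Nfe2l2 (-0.04 to 0.19), Prdx3 (-0.12 to 0.26), Prdx4 (-0.26 to 0.20), Sod1 (-0.04 to 0.48) and Txn2 (-0.07 to 0.20). With limma at a pseudocount of 0.1 the median of all genes stood at 0.11, so values there are relative to that shift. No paired analysis was possible because the column names carry no replicate numbers. With 72 counts summed over the libraries in the lowest member, small changes of such genes were not detectable at this depth.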
